A study of Mus musculus with 12 samples.

Results

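The clustered protocadherins are the protein-coding genes of GENCODE vM21 whose symbols start with Pcdha, Pcdhb or Pcdhg. By that rule 57 genes were members, of 35580 genes with a transcript in the deposited table: 14 Pcdha genes, 22 Pcdhb genes and 21 Pcdhg genes. They were represented by 87 of 115270 transcripts (24, 26 and 37 in the 3 clusters). The symbol Pcdha11 was carried by 2 gene identifiers, which are named by identifier below. Pcdhgb8 is annotated as a polymorphic pseudogene and was therefore not a member; its level was 0.831 to 1.78 TPM (a level relative to the library that is corrected for transcript length).

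Hippocampal RNA came from 12 adult male mice of the C57BL/6 strain (C57BL/6J in the study's methods), aged 70 days after birth, with 3 mice in each of 4 groups. Control mice came from dams that drank only water and were left undisturbed. Ethanol mice came from dams that could choose 10% ethanol during pregnancy. By the study's methods it was also on offer before mating and until postnatal day 10, so that it overlapped most of the separation days. Stress mice were isolated, away from mother and siblings, for 3 h daily on postnatal days 2 to 14, and ethanol+stress mice had both exposures. Intake by the dams was voluntary, so the dose that reached a litter was not set, and stress mice and undisturbed mice may have come from the same litters. The labels do not tie mice to litters, and p-values measure the spread between these mice only.

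Clustered protocadherins are cadherin-like adhesion proteins of the neuronal surface. A neuron expresses a small set of them, chosen largely at random by switching on the promoters in front of single variable exons, and the proteins bind the same isoforms on a facing membrane, which lets a neuron tell its own branches from those of others. Promoter choice depends on CTCF and cohesin, which loop a distant enhancer to a promoter, and on DNA methylation, which keeps promoters silent. The C-type genes Pcdhac1, Pcdhac2, Pcdhgc3, Pcdhgc4 and Pcdhgc5 lie at the ends of the Pcdha and Pcdhg clusters and are used in a more regular way than the alternate genes in front of them.

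All 57 genes lie on the forward strand of chromosome 18 of GRCm38 (mm10), in 3 neighbouring blocks. The Pcdha genes span positions 36930184 to 37187661, the Pcdhb genes 37264938 to 37524479, and the Pcdhg genes 37661793 to 37841873. The most abundant transcript had 1 exon in 22 of 22 Pcdhb genes and 4 exons in 21 of 21 Pcdhg genes. Among the Pcdha genes it had 4 exons in 11 of 14. In the Pcdha and Pcdhg clusters a gene's own large first exon is joined to constant exons that all genes of the cluster share. Read pairs from those constant exons were divided among the genes by estimate before deposit, so the levels of single Pcdha and Pcdhg genes are less certain than their cluster total. The median length of the most abundant transcript was 5337 nt for Pcdha, 3714 nt for Pcdhb and 4723 nt for Pcdhg, beside 1746 nt over all transcripts that passed the filter on low values.

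Before any comparison, 3 libraries stood apart. The deposited values of ethanol 2, ethanol+stress 2 and ethanol+stress 3 summed to 1126490 to 1173650, beside 889222 to 1024269 in the 9 others. In these 3 libraries the 20 most abundant transcripts held 27.5% to 29.2% of the values (20.3% to 25% in the others), transcripts of the mitochondrial genome held 7.71% to 8.34% (5.73% to 6.93%), and long transcripts were lower relative to short ones. Marker sums moved with them. The 5 astrocyte markers summed to 1101 to 1173 TPM (738 to 967 in the others), the 5 blood markers to 3977 to 6815 TPM (1603 to 3472) and the 4 CA1 pyramidal cell markers to 72.0 to 81.0 TPM (99.97 to 131.6). The sum of the 5 microglia markers (261 to 308 TPM beside 197 to 249 TPM) was also higher. The sums overlapped for the 5 oligodendrocyte markers (5085 to 5908 TPM beside 2638 to 5335 TPM) and the 4 CA3 pyramidal cell markers (170 to 186 TPM beside 148 to 172 TPM). Single markers were less uniform than the sums. All 3 libraries lay above the 9 others in 3 of 5 astrocyte, 3 of 5 blood and 1 of 5 microglia markers (beside 10.3% of all genes). They lay below in 2 of 4 CA1 markers (beside 9.48%). The blood sums also moved with treatment, from 1603 to 2022 TPM among controls, 3146 to 6815 after ethanol, 2593 to 3392 after stress and 2454 to 6480 after both, so that every treated library lay above every control. For the 4 dentate granule cell markers the ranges overlapped, at 125 to 130 TPM and 113 to 152 TPM, as did those of the 6 interneuron markers. The 5 choroid plexus markers ran from 38.04 to 7202 TPM and did not follow the 3 libraries. None of the 4 dentate, 4 CA1 or 4 CA3 markers was at 0 in every library. What part these differences had in the protocadherin values was not tested, and in whole tissue fewer cells of a type cannot be told apart from less RNA per cell.

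The clustered protocadherins were low in the same 3 libraries. In 20 of the 57 genes (35.1%) all 3 libraries lay below all 9 others, beside 9.48% of the 18434 genes tested, and in 0 of 57 did all 3 lie above, beside 10.3%. The median of the 3 libraries was below the median of the 9 others in 14 of 14 Pcdha genes, 22 of 22 Pcdhb genes and 19 of 21 Pcdhg genes. On the log2(TPM + 0.5) scale the median difference over members was -0.36, beside 0.03 over all genes. With a smooth (lowess) trend on transcript length removed within each library it was -0.27, beside 0.00 over all genes. With each library rescaled to the same sum it was -0.60, beside -0.17. Since 2 of the 3 libraries were ethanol+stress and 1 was ethanol, the gene and cluster comparisons that involve ethanol are followed by their values without them.

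Pcdhgc5, whose protein is known to bind GABA-A receptors, had the highest summed level of all members. Part of that sum came from a short transcript, and its long transcript was below that of Pcdhgc3 on average (described below). The summed TPM of Pcdhgc5 was 49.9, 44.4 and 52.4 among controls, 47.7, 42.6 and 51.6 after ethanol, 42.8, 45.9 and 54.0 after stress, and 54.7, 34.0 and 44.5 after both. Pcdhgc3, known for its part in the branching of cortical dendrites, followed with 41.1, 37.6 and 37.96 among controls, 42.6, 37.6 and 32.2 after ethanol, 36.8, 40.7 and 39.4 after stress, and 36.5, 41.9 and 44.5 after both. The 4 groups overlapped in both genes. Pcdhgc3 and Pcdhgb7 were the 2 members whose median was not lower in the 3 libraries with high sums (41.9 beside 37.96 TPM, and 3.88 beside 3.83 TPM).

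Pcdhac2, known from the spacing of serotonergic axons, was the leading Pcdha gene with on average 36.3% of its cluster. Its level was 17.6, 17.2 and 16.8 TPM among controls, 14.7, 9.77 and 19.2 after ethanol, 15.0, 18.0 and 17.0 after stress, and 16.9, 9.41 and 10.4 after both. The values of 9.41 to 10.4 TPM are those of the 3 libraries with high sums, and the other 9 lay between 14.7 and 19.2 TPM. Pcdhac1 and Pcdhgc4, of which the second is the member that neuronal survival is known to need, were far lower at 2.32 and 5.25 TPM on average.

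The alternate genes were expressed at low, graded levels. Pcdha4 (3.76 TPM) and Pcdha12 (3.11 TPM) followed Pcdhac2 in the Pcdha cluster, and Pcdha8 was lowest at 0.412 TPM. Pcdhb9 (8.54 TPM), Pcdhb17 (6.02 TPM) and Pcdhb12 (5.30 TPM) led the Pcdhb cluster, in which Pcdhb1 was lowest at 0.164 TPM. Pcdhb1 corresponded to about 0.993 to 4.97 read pairs per library, so that its group differences were not resolved at this depth. In the Pcdhg cluster, Pcdhga11 (10.7 TPM) came after Pcdhgc5 and Pcdhgc3, and Pcdhgb5 was lowest at 2.88 TPM. The 3 leading genes held 53.1% of the Pcdha total, 52.0% of the Pcdhg total and 27.6% of the Pcdhb total. The order of the 57 genes was close in all mice: over the 66 pairs of libraries, Spearman's rho across genes was at least 0.893, with a median of 0.933 (genes are not independent replicates). Within groups the median SD of a member was 0.23 on the log2 scale, the same as the 0.23 of 14180 other genes in the same range of mean levels.

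**Figure D1:**
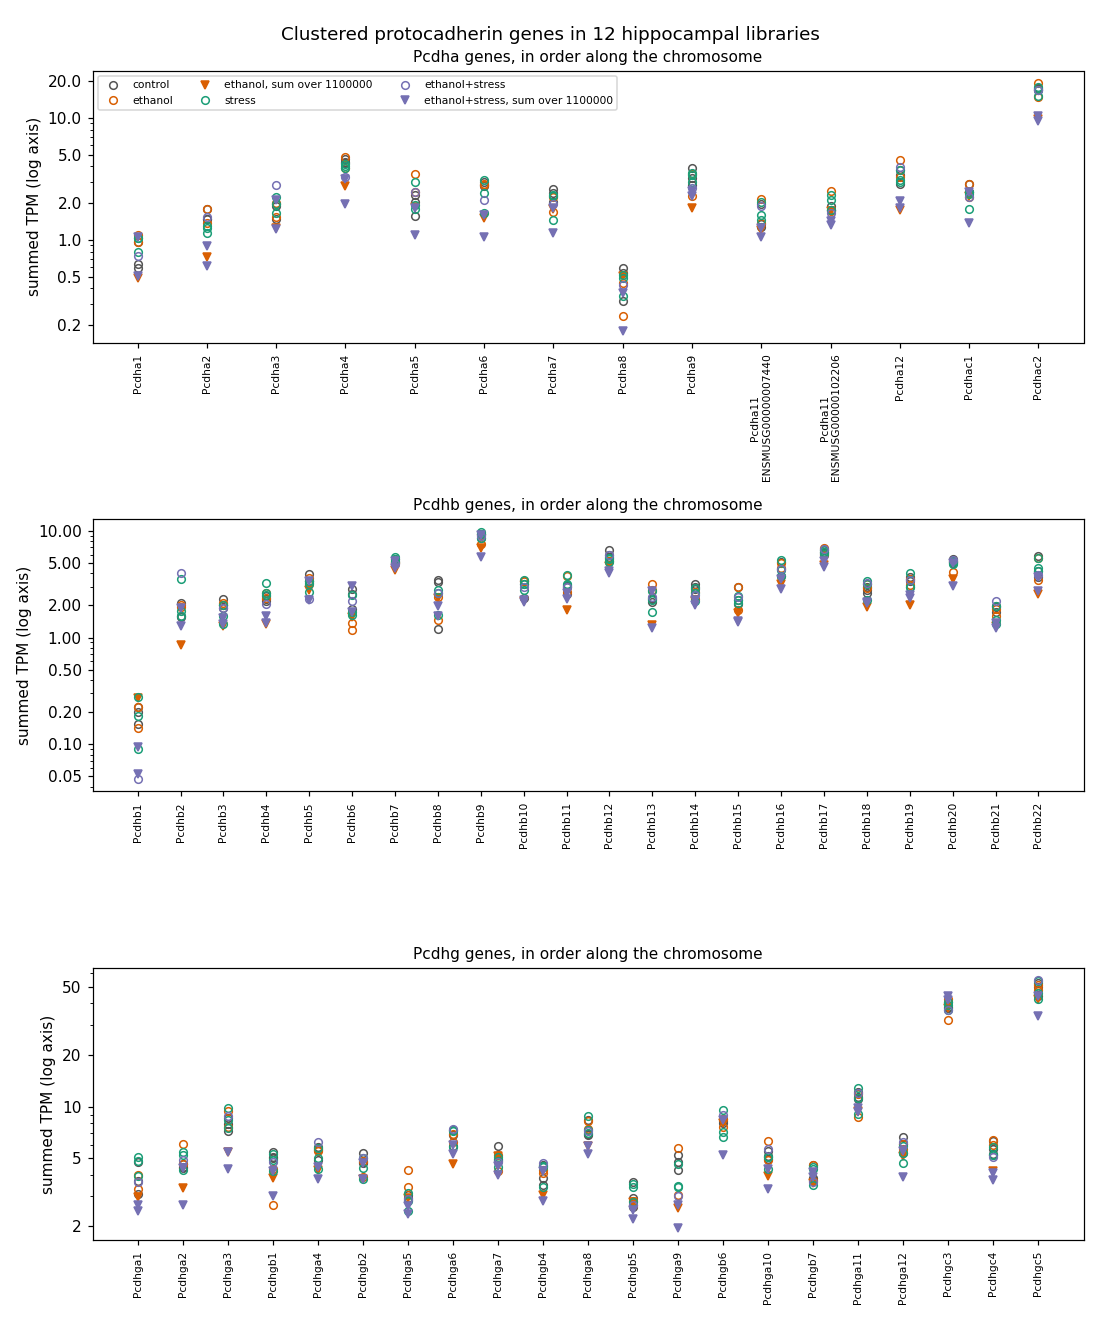
Summed TPM (log axis) of each of the 57 genes in order along the chromosome, with 1 point for each of the 12 libraries. Colour gives the group, and filled triangles mark the 3 libraries with sums over 1100000. Pcdhgc3 and Pcdhgc5 stand above the alternate genes in every library, Pcdhac2 overlaps Pcdhga11 (9.41 beside 9.87 TPM in ethanol+stress 2), and the triangles lie below all other points in 20 of 57 genes.

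The first question was whether prenatal ethanol, early separation or both changed the output of a whole cluster. The Pcdha total was 46.4, 45.6 and 45.9 TPM in the control libraries and 40.9, 29.5 and 53.2 TPM in the ethanol libraries. It was 42.3, 47.9 and 43.2 TPM in stress and 44.6, 26.3 and 31.7 TPM in ethanol+stress. The 3 control values lay close together, the ethanol values lay on both sides of them, and the 3 ethanol+stress values were below all control values. The Pcdhb total was 77.6 ± 1.60 TPM (SD, n = 3) among controls, 68.2 ± 11.7 after ethanol, 76.5 ± 3.90 after stress and 65.3 ± 12.4 after both. The Pcdhg total was 194.4 ± 8.50 TPM among controls, 183.3 ± 16.3 after ethanol, 190.6 ± 14.4 after stress and 175.8 ± 24.2 after both.

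In ethanol+stress mice the mean log2 total differed from control by -0.46 for Pcdha (exact permutation p = 0.1), by -0.27 for Pcdhb (exact permutation p = 0.2) and by -0.15 for Pcdhg (exact permutation p = 0.3). These two-sided tests of 3 against 3 mice cannot go below 0.1. Without the 3 libraries with high sums, which leaves ethanol+stress 1 alone in its group, the differences were -0.04, -0.00 and 0.03. In ethanol mice they were -0.20, -0.20 and -0.09 with exact permutation p of 0.7, 0.2 and 0.5, and without ethanol 2 they were 0.02, -0.05 and -0.01. Leaving out any 1 library gave -0.40 (without ethanol 3) to 0.02 for Pcdha, -0.29 to -0.05 for Pcdhb and -0.14 to -0.01 for Pcdhg, and in ethanol+stress -0.67 to -0.29, -0.40 to -0.12 and -0.25 to -0.05. In stress mice, whose libraries were not among the 3, the differences were -0.05, -0.02 and -0.03 with exact permutation p of 0.4, 0.7 and 0.7. Without any 1 library they were -0.10 to -0.02, -0.06 to 0.01 and -0.07 to 0.03.

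For the effect of ethanol averaged over the stress factor, labels were permuted within each stress level, which gives 400 arrangements and a smallest p of 0.005. On the log2 scale the difference was -0.31 for the Pcdha total (exact permutation p = 0.12), that for Pcdhb was -0.22 (exact permutation p = 0.055) and that for Pcdhg was -0.11 (exact permutation p = 0.22). Over the 40 tests on cluster measures, none had a Benjamini-Hochberg adjusted p under 0.5. These differences were 0.01, -0.02 and 0.02 without the 3 libraries.

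**Figure D2:**
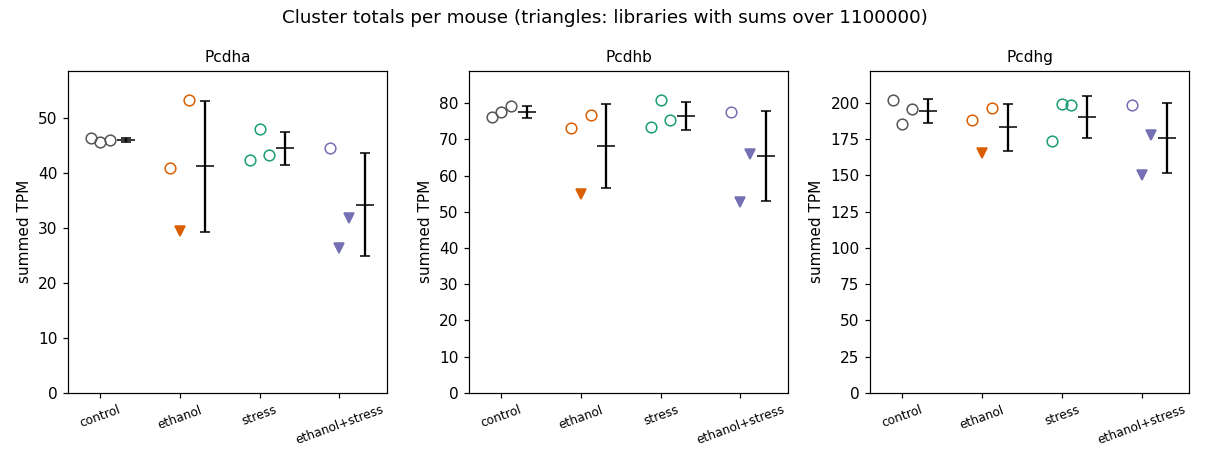
Summed TPM of each cluster (vertical axes from 0) for every mouse by group. Circles are mice, triangles are the 3 libraries with sums over 1100000, and bars give the mean ± SD of 3 mice. The Pcdha triangles lie between 26.3 and 31.7 TPM and every circle lies at 40.9 TPM or above.

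Next, single genes were compared by limma on log2(TPM + 0.5) with the 4 groups in 1 model, and a gene was called at an unadjusted p under 0.01, the limit used in the study. All 57 members passed the filter of 0.1 TPM in at least 6 libraries. No member had an adjusted p (Benjamini-Hochberg over 18434 genes) under 0.05 in any comparison. Because the 3 treated groups share the same control mice, their values below are not independent of each other.

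Prenatal ethanol alone called 0 of 57 members, beside 0.678% of all genes. At an unadjusted p under 0.05 there were 2 members (3.51%, beside 3.63% of all genes), Pcdhb6 and Pcdhgb1. Pcdhb6 was 2.82, 2.55 and 1.86 TPM among controls against 1.35, 1.55 and 1.18 TPM in ethanol (log2 fold change -0.63, SE 0.22, limma adjusted p = 0.997). Pcdhgb1 was 5.11, 5.05 and 5.46 TPM among controls against 2.68, 3.81 and 4.32 TPM in ethanol (log2 fold change -0.50, SE 0.20, limma adjusted p = 0.997). The 2 groups did not overlap in either gene. The log2 fold changes were -0.71 and -0.54 without the 3 libraries. Pcdhb6 passed p under 0.01 when control 3 was left out, and Pcdhga9 did so when ethanol 3 was left out, each time as the 1 member called (beside 0.553% and 0.96% of all genes).

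The signs of the ethanol differences were uneven. Of 57 members, 48 were lower and 9 higher than control, with a median log2 fold change of -0.13, beside 0.02 over all genes. By cluster the median was -0.13 for Pcdha, -0.15 for Pcdhb and -0.07 for Pcdhg. All ethanol values lay below all control values in 4 members (7.02%, beside 3.19% of all genes) and above them in 0 (beside 5.06%). Without the 3 libraries, 33 members were lower and 24 higher, the median was -0.01, and the 2 remaining ethanol libraries lay below all controls in 4 members, beside 7.18% of all genes.

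Early separation alone called 0 of 57 members, beside 0.51% of all genes, and 0 at an unadjusted p under 0.05, beside 2.4%. The median log2 fold change was -0.03, with 33 members lower and 24 higher. The range over members was -0.28 to 0.26. Stress values lay below all controls in 3 members (5.26%, beside 3.39% of all genes) and above them in 2 (beside 3.81%). Pcdhac2 was 16.7 ± 1.55 TPM in stress and 17.2 ± 0.383 TPM in control, and Pcdhgc5 was 47.5 ± 5.81 and 48.9 ± 4.06 TPM (SD, n = 3).

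Ethanol and separation together called 1 of 57 members (1.75%, beside 0.971% of all genes). This was Pcdhga9, an alternate Pcdhg gene, at 5.19, 4.29 and 4.76 TPM among controls against 3.02, 1.97 and 2.66 TPM in ethanol+stress (log2 fold change -0.79, SE 0.25, limma adjusted p = 0.791). The 2 groups did not overlap. In the ethanol libraries its level was 3.05, 2.56 and 5.72 TPM and in the stress libraries 3.45, 3.42 and 4.65 TPM. The call was lost without control 1, control 2, control 3, ethanol+stress 2 or ethanol+stress 3, with log2 fold changes of -0.91 to -0.65 over the fits without 1 library. Leaving out all libraries with high sums gave -0.57 (SE 0.32), which was not called. Leaving out ethanol+stress 1, which keeps only the 2 libraries with high sums in that group, raised the count from 1 to 5 called members (8.77%): Pcdhga9, Pcdha4, Pcdha6, Pcdhb12 and Pcdhac2. The share of all genes called rose too, from 0.971% to 4.14%.

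At an unadjusted p under 0.05 there were 7 members in ethanol+stress (12.3%, beside 5.37% of all genes), and all 7 were lower than control. Besides Pcdhga9 they were Pcdha4, Pcdha6, Pcdhac2, Pcdhb12, Pcdhb14 and Pcdhgc4. Pcdha4 was 4.29, 4.34 and 4.59 TPM among controls against 3.25, 1.95 and 3.15 TPM in ethanol+stress (log2 fold change -0.60, SE 0.21, limma adjusted p = 0.791). Pcdhac2 had a log2 fold change of -0.52 (SE 0.24, limma adjusted p = 0.791), which was -0.03 without the 3 libraries. For Pcdhgc4 it was -0.39 (SE 0.17), and -0.16 without them. For Pcdha4 it was -0.39 without them. None of the 7 had a p under 0.05 without the 3 libraries. The 1 member that did (beside 3.89% of all genes) was Pcdhb2, which was higher by 1.004 on the log2 scale and rests on ethanol+stress 1 alone.

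Of the 57 members, 53 were lower and 4 higher in ethanol+stress than in control, with a median log2 fold change of -0.22, beside 0.02 over all genes. The median was -0.33 for Pcdha, -0.22 for Pcdhb and -0.19 for Pcdhg. All 3 ethanol+stress values lay below all control values in 12 members (21.1%, beside 4.62% of all genes) and above them in 0 (beside 5.63%). Without the 3 libraries the median was -0.02 and 32 members were lower. Ethanol+stress 1 alone lay below the 3 controls in 17 members (29.8%, beside 27.0% of all genes). With the length trend removed the median was -0.19, beside 0.00 over all genes.

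**Figure D3:**
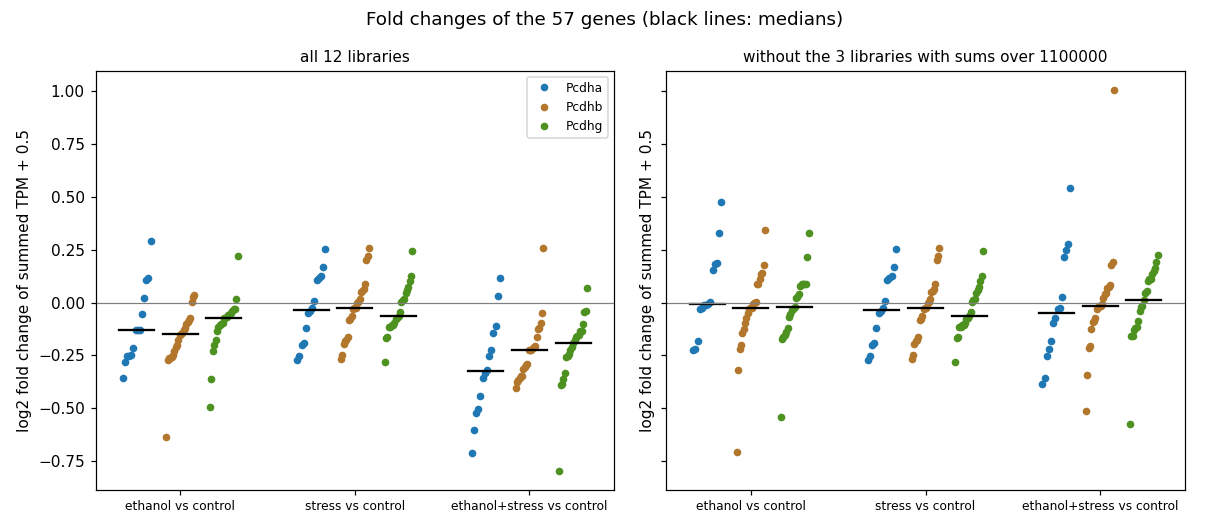
Log2 fold changes of the 57 genes against control, by cluster and treatment, with all 12 libraries (left) and without the 3 libraries with sums over 1100000 (right). Points are genes and black lines are cluster medians. The ethanol+stress medians of -0.33, -0.22 and -0.19 on the left stand at -0.05, -0.02 and 0.01 on the right.

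Across the factors, ethanol averaged over stress called 0 members (beside 1.12% of all genes), and 7 (12.3%) had an unadjusted p under 0.05 (beside 5.79%). These were Pcdha4, Pcdha9, Pcdhac2, Pcdhb4, Pcdhga1, Pcdhga9 and Pcdhgb1. Lower values were seen in 54 of 57 members (median -0.15, beside 0.02 over all genes), and without the 3 libraries in 28 of 57 (median 0.00), where 0 members had a p under 0.05 (beside 4.61%). The count of 0 rose to 3 (5.26%) without ethanol 3 (Pcdhga9, Pcdhac2 and Pcdha9), beside 1.91% of all genes, and to 3 without ethanol+stress 1 (Pcdhb12, Pcdhac2 and Pcdhga1), beside 3.54%. Stress averaged over ethanol called 0 members (beside 0.586%), and 0 had a p under 0.05 (beside 3.28%). Without the 3 libraries 2 did (beside 3.57%), Pcdhb2 at 0.56 and Pcdhb5 at -0.34 on the log2 scale. The interaction of ethanol and stress called 0 members (beside 0.461%), and 1 had a p under 0.05 (beside 2.69%). This was Pcdhb6, at 2.41 ± 0.498 TPM among controls, 1.36 ± 0.185 TPM after ethanol, 1.95 ± 0.473 TPM after stress and 2.33 ± 0.645 TPM after both (SD, n = 3). The Pcdhb6 sum includes a short transcript of 0 to 7.14 read pairs per library, described below, which held the low ethanol values. Against control the log2 fold change of the Pcdhb6 sum was -0.63 for ethanol, -0.25 for stress and -0.05 for both. Its interaction was 0.83 on the log2 scale (SE 0.31, limma adjusted p = 1) and 0.87 without the 3 libraries, and with all others kept it passed p under 0.01 without stress 1 or without ethanol+stress 2, each time as the 1 member called (beside 0.494% and 0.418% of all genes).

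Promoter use within a cluster was described by the share of C-type genes. These genes held 42.0% to 44.1% of the Pcdha total among controls, 41.0% to 41.6% after ethanol, 40.9% to 43.6% after stress and 40.4% to 42.8% after both. The ethanol values lay below all control values, by 1.73 percentage points on average (difference -1.73, exact permutation p = 0.1, adjusted p = 0.5 over 40 tests), and the difference was -1.55 without ethanol 2. Averaged over stress the ethanol difference was -1.35 points (exact permutation p = 0.05, adjusted p = 0.5), and -0.56 without the 3 libraries. In the Pcdhg cluster the C-type share was 48.1% ± 1.05 among controls, 49.4% ± 3.29 after ethanol, 48.3% ± 1.69 after stress and 51.2% ± 2.40 after both (SD, n = 3). The ethanol+stress difference of 3.09 points (exact permutation p = 0.2) was 0.36 without the 3 libraries.

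Sums of alternate and C-type genes were also set beside each other in the 3 libraries, and no test of a difference between the 2 kinds was run. The 18 alternate Pcdhg genes summed to 70.8 to 85.2 TPM there and 89.1 to 107.1 TPM in the 9 others. The 3 C-type Pcdhg genes summed to 79.6 to 93.0 TPM there and 84.8 to 98.6 TPM in the others, ranges that overlap. These 3 genes were not alike: the median of the 3 libraries was above that of the 9 others for Pcdhgc3 (41.9 beside 37.96 TPM), 0.854 times as high for Pcdhgc5 and 0.721 times as high for Pcdhgc4, whose 3 lowest values were those of the 3 libraries. In the Pcdha cluster the 12 alternate genes summed to 15.5 to 18.9 beside 24.0 to 31.1 TPM, and the 2 C-type genes to 10.8 to 12.8 beside 16.9 to 22.1 TPM. The latter sum is mostly Pcdhac2, with a ratio of 0.574, while that of Pcdhac1 was 0.939 (2.30 beside 2.44 TPM).

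**Figure D4:**
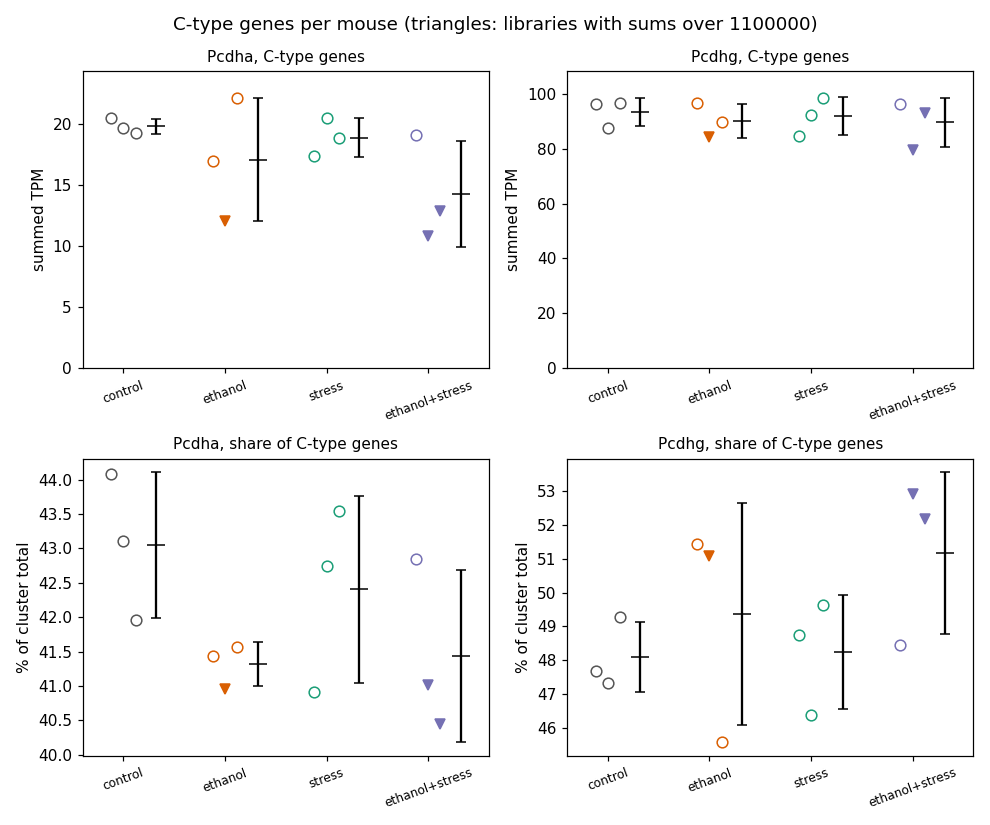
Summed TPM of the C-type genes of the Pcdha and Pcdhg clusters (top, axes from 0) and their share of the cluster total (bottom, in %, axes not from 0) for every mouse by group. Triangles are the 3 libraries with sums over 1100000 and bars give the mean ± SD of 3 mice. The triangles lie low in the Pcdha sum, at 10.8 to 12.8 TPM, and overlap the circles in the Pcdhg sum.

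The effective number of genes, the exponential of the Shannon entropy of the shares, says how evenly a cluster is used. It was 8.92 ± 0.169 of 14 for Pcdha, 18.9 ± 0.0746 of 22 for Pcdhb and 13.2 ± 0.274 of 21 for Pcdhg in control mice (SD, n = 3). For Pcdha it was 9.41 ± 0.352 after ethanol, 8.98 ± 0.335 after stress and 9.34 ± 0.374 after both. The ethanol difference averaged over stress was 0.43 genes (exact permutation p = 0.04, adjusted p = 0.5), and 0.14 without the 3 libraries. For Pcdhg it was 12.2 ± 0.584 in ethanol+stress, a difference from control of -1.05 genes (exact permutation p = 0.1), and -0.39 without them.

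The transcripts of the members were then tested by themselves, of which 80 of 87 passed the filter and 3 were at 0 in every library. Ethanol called 1 of them (beside 1.26% of all transcripts), stress 0 (beside 0.914%), ethanol+stress 0 (beside 1.21%), the interaction 0 (beside 0.854%), ethanol averaged over stress 1 (beside 1.47%) and stress averaged over ethanol 0 (beside 0.934%). No adjusted p over 59852 transcripts was under 0.05 for a member.

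The transcript called in ethanol was ENSMUST00000194655.1, a short Pcdhb6 transcript of 681 nt and 2 exons. It was 1.80, 1.55 and 1.08 TPM among controls, 0.284, 0.420 and 0 TPM after ethanol, 1.44, 0.818 and 0.725 TPM after stress, and 0.647, 0.780 and 1.77 TPM after both (ethanol log2 fold change -1.46, SE 0.37, limma adjusted p = 0.656). The ethanol values were below those of all other libraries. They correspond to about 1.21, 1.53 and 0 read pairs, beside 4.16 to 7.14 in control, so the fold rests on very few read pairs. The call was lost without control 1 or ethanol 3, with log2 fold changes of -1.34 and -1.20. The long single-exon Pcdhb6 transcript of 3729 nt was 1.02, 0.996 and 0.780 TPM among controls against 1.07, 1.13 and 1.18 TPM in ethanol, so the low ethanol values were seen in the short transcript only. The long one was 1.05, 0.822 and 0.994 TPM after stress and 1.57, 0.969 and 1.25 TPM after both.

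The transcript called for ethanol averaged over stress was ENSMUST00000194190.1, the 4-exon transcript of Pcdhga1, the first gene of the Pcdhg cluster. It was 4.24, 3.69 and 3.08 TPM among controls against 3.62, 4.52 and 4.62 TPM in stress. In the ethanol libraries it was 3.03, 2.58 and 3.10 TPM and in ethanol+stress 3.06, 1.62 and 2.33 TPM (log2 fold change -0.53, SE 0.17, limma adjusted p = 0.672). Control 3 lay among the ethanol values, so the groups overlapped. Leaving out 1 library kept the call in 3 of 12 fits, and without the 3 libraries the value was -0.31 (SE 0.18), which was not called.

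Most of the Pcdhgc3 level came from 1 transcript of 4687 nt (37.3 of 39.1 TPM on average). Pcdhgc5 was divided between a transcript of 4741 nt (34.1 TPM) and a short one of 593 nt (11.03 TPM). The long Pcdhgc5 transcript was 24.4 to 28.9 TPM in the 3 libraries with high sums: 25.9 in ethanol 2, 24.4 in ethanol+stress 2 and 28.9 in ethanol+stress 3, all below the 30.1 to 41.6 TPM of the 9 others. The short one did not follow, at 16.4, 8.47 and 13.5 TPM in those libraries.

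Whether the 3 clusters moved together between mice of a group was asked within the libraries that do not stand apart. Over 8 libraries (3 control, 2 ethanol and 3 stress), and with group means removed, Pearson's r of the log2 totals was 0.717 for Pcdha and Pcdhb (Spearman's rho 0.81; exact permutation p = 0.0448 and 0.0218; adjusted over 3 pairs 0.134 and 0.0654). It was 0.489 for Pcdha and Pcdhg (rho 0.571; exact permutation p = 0.224 and 0.151; adjusted 0.224 and 0.151) and 0.567 for Pcdhb and Pcdhg (rho 0.571; exact permutation p = 0.146 and 0.151; adjusted 0.219 and 0.151). Without the 2 libraries farthest from the median r was 0.886, 0.607 and 0.00914 over 6, so that as deposited the last relation rests on those libraries. The totals share a library and its scaling. After each library was rescaled to the same sum, r was 0.917, 0.834 and 0.875 (exact permutation p = 0.00141, 0.0102 and 0.00506, adjusted 0.00423, 0.0102 and 0.00759), and 0.967, 0.842 and 0.74 without the 2 farthest libraries. All these permutations shuffled the deviations freely, although removing group means ties the deviations of a group to each other. The p-values of this paragraph are therefore likely too small and serve as description only.

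The study lists genes with a promoter region whose DNA methylation differed from control, and some are clustered protocadherins. The list was made from methylation in the same study and is not an independent set, and the methylation itself was not analysed here. The direction of each methylation change is not given here, so the RNA values cannot be read as following or opposing it. For ethanol, 4 listed names were members, with RNA log2 fold changes of -0.08 for Pcdhb16, -0.27 for Pcdhb19, -0.18 for Pcdhb3 and -0.05 for Pcdhgc5, which were 0.09, -0.07, 0.00 and 0.02 without ethanol 2. For stress, 3 of 4 names matched a member symbol (Pcdha10 did not), with -0.19 for Pcdha7, -0.04 for Pcdha8 and 0.00 for Pcdhb17. For ethanol+stress, 3 of 4 names matched (Pcdha4-g did not), with -0.50 for Pcdha2, -0.35 for Pcdhb14 and -0.24 for Pcdhga10. A name without a matching symbol may still belong to a gene in the data. None was called in the matching comparison (beside 0.678%, 0.51% and 0.971% of all genes), and with so few names this says little. Pcdhb14 had an unadjusted limma p under 0.05 in ethanol+stress (beside 5.37% of all genes). The 3 ethanol+stress values were -0.03, -0.22 and 0.11 without the 3 libraries.

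The 25 genes listed as regulators of the clusters include Ctcf, which binds the promoters, the cohesin subunits Rad21, Smc1a and Smc3, the cohesin loader Nipbl and its release factor Wapl, and the methylation and silencing factors Dnmt1, Dnmt3a, Smchd1 and Setdb1. Of 25 tested, 0 were called in any of the 6 comparisons (beside 0.461% to 1.12% of all genes), and at most 1 had an unadjusted p under 0.05 in any of them (beside 2.4% to 5.79%), counts near those over all genes. In ethanol+stress and in the interaction this was Dnmt3a, a de novo DNA methyltransferase, and in ethanol and in ethanol averaged over stress it was Wiz, both named after their values were seen. For Wiz the log2 differences were 0.39 and 0.32, and 0.38 and 0.21 without the 3 libraries. Dnmt3a was 19.9, 21.6 and 23.1 TPM among controls against 15.4, 18.8 and 17.8 TPM in ethanol+stress, without overlap (log2 fold change -0.31, SE 0.11, limma adjusted p = 0.791), and its interaction was -0.40 (SE 0.16, limma adjusted p = 1). Leaving out the 3 libraries gave -0.47 (SE 0.15) and -0.56 (SE 0.20), neither called, and rests on ethanol+stress 1 for that group. For ethanol averaged over stress the log2 differences were then -0.25 for Dnmt3a and 0.31 for Tet1, both named after their values were seen. Of the 25 regulators, 15 were then higher and 10 lower. The median log2 fold change of the 25 genes was -0.01 for ethanol, -0.02 for stress and -0.05 for ethanol+stress, the last 0.03 without the 3 libraries.

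Of the 15 signalling partners and proteases, 1 was called in ethanol (beside 0.678% of all genes) and 0 in the other 5 comparisons. It was Cyfip1, a subunit of the WAVE complex, which protocadherins recruit to regulate actin. Its level was 81.7, 77.1 and 75.1 TPM among controls against 68.1, 65.5 and 65.0 TPM in ethanol (log2 fold change -0.23, SE 0.07, limma adjusted p = 0.997). With all 3 libraries with high sums left out its log2 fold change was also -0.23 (SE 0.07), which was not called. The groups did not overlap, and its stress values of 68.9 to 72.0 TPM and ethanol+stress values of 67.2 to 69.4 TPM were also below all controls. Ethanol+stress values were lower than control in 15 of 15 partners, with a median of -0.11, but in 4 of 15 without the 3 libraries, with a median of 0.08.

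The 12 non-clustered protocadherins are single genes outside the 3 clusters. In ethanol+stress 11 of 12 were lower than control, with a median log2 fold change of -0.24, beside -0.22 for the clustered members. That count was 8 of 12 without the 3 libraries (median -0.12). For ethanol 9 were lower (median -0.13, and 5 with a median of 0.05 without ethanol 2) and for stress 5 (median 0.01). No comparison but ethanol averaged over stress called a gene of this list. That gene was Pcdh19, which is linked to epilepsy (1 of 12, beside 1.12% of all genes). It was 25.5, 23.4 and 25.9 TPM among controls against 19.5, 16.6 and 22.04 TPM in ethanol, and 19.9, 28.2 and 23.8 TPM in stress and 20.9, 14.2 and 19.7 TPM in ethanol+stress (log2 fold change -0.37, SE 0.12, limma adjusted p = 0.76). Without the 3 libraries the difference was -0.22, which was not called. Its lowest values were those of ethanol 2 and ethanol+stress 2, and ethanol 1, ethanol 3 and ethanol+stress 1, at 19.5 to 22.04 TPM, lay below all controls but overlapped the stress mice.

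**Figure D5:**
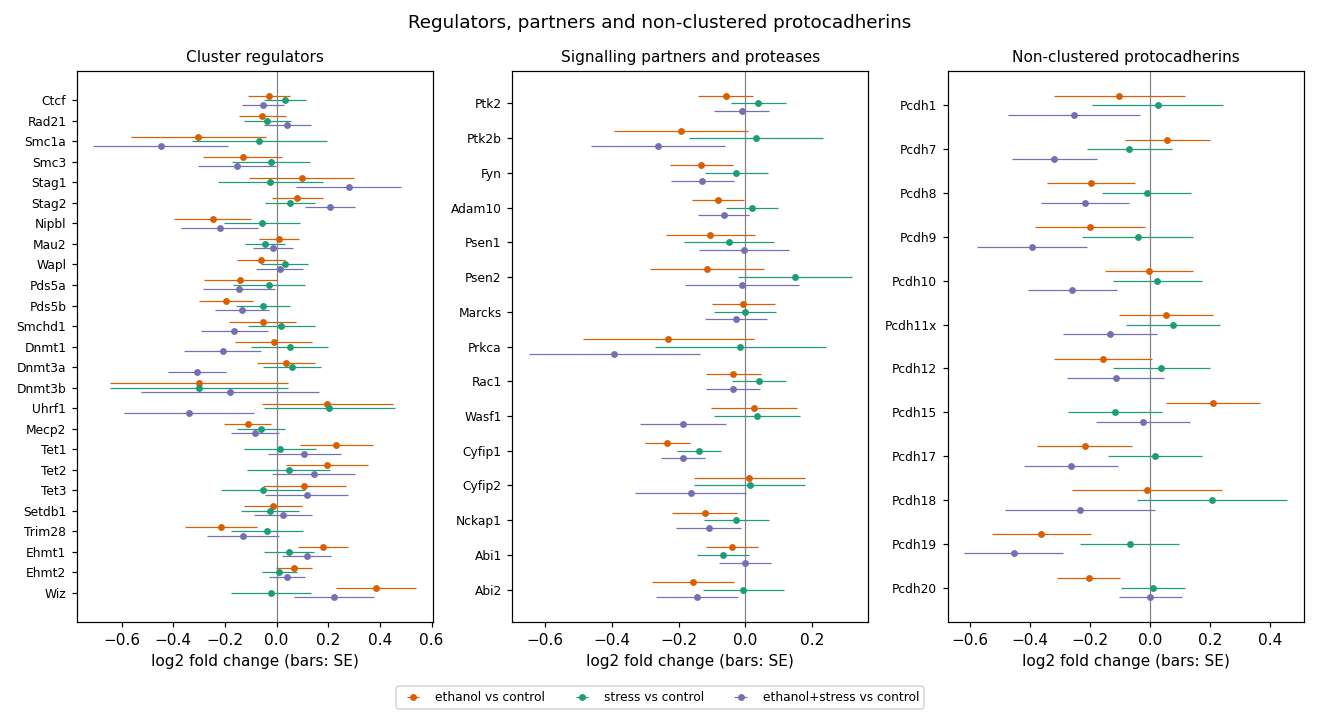
Log2 fold changes against control (horizontal axes; bars are SE) of 25 cluster regulators, 15 signalling partners and proteases, and 12 non-clustered protocadherins, with 1 colour per treatment. The ethanol+stress points lie left of 0 for 15 of 15 partners and for 11 of 12 non-clustered protocadherins, which were 4 and 8 without the 3 libraries with sums over 1100000.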

How the data were processed

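RNA-Seq values of 12 hippocampal libraries, 3 for each group by the labels, were analysed. The authors deposited TPM, a signal: kallisto divided the read pairs of stranded, rRNA-depleted libraries among transcripts for sleuth, and the values had been scaled across samples. Tool versions are not given in the sources used here. A step worth 1 read pair, found from low values, gave 12070000 to 14890000 read pairs per library; 77.3% to 79.8% of low values came out whole within 0.1, too few for a count test.

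Of 115270 transcripts, 113580 matched GENCODE vM21 and were summed per gene. Features reaching 0.1 TPM in 6 or more libraries (18434 genes, 59852 transcripts) entered limma 3.58.1 (R 4.3.3; lmFit, eBayes with trend) on the scale log2(TPM + 0.5), in 1 model of 4 groups without a replicate block. Tests were two-sided, calls used an unadjusted p under 0.01, and adjusted p are Benjamini-Hochberg values over all features tested. A fold change on this scale understates the change of low genes. Cluster totals and shares were compared by exact permutation tests over mice with Python 3.11.15, numpy 2.4.6 and scipy 1.17.1. The correlation of totals was planned over 12 libraries but is given over 8, because 3 libraries formed a separate cluster and ethanol+stress 1 was then alone in its group. The 3 libraries with sums over 1100000 were set apart after seeing the data, and so was each result without them. The scripts were tested on simulated data.

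Named are the C-type genes, the 3 highest and the lowest member of each cluster, members called in any comparison, members with a listed promoter region, and, chosen after their values were seen, members with an unadjusted p under 0.05 and members of note for the 3 libraries. Members and lists were chosen with earlier results of these data known. Alternatives are given in the closing section. Sequences of the members are not reported here.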

Additional observations from a re-analysis of the deposited data

How the results depend on the processing

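The limits are 3 mice per group, and 3 libraries with high sums of which 2 are ethanol+stress; without them that group holds 1 mouse, assumed to vary like the others. Member genes called under other settings were, for ethanol (0 in the report), 1 with eBayes without trend and 1 after rescaling to a common total. At p under 0.05 they were 2 (beside 3.63% of all genes). For ethanol+stress (1 in the report) they were 0 without a filter, 0 after rescaling and 2 with eBayes without trend. At p under 0.05 they were 7 (beside 5.37% of all genes). With protein-coding transcripts only, the 1 gene called was Pcdha4, not Pcdhga9. At p under 0.05 the interaction gave 1 (beside 2.69% of all genes) and ethanol averaged over stress 7 (beside 5.79%). The latter gave 1 with protein-coding transcripts only. Leaving out 1 library gave 0 to 1 member genes for ethanol and for the interaction, 0 to 5 for ethanol+stress and 0 to 3 for ethanol averaged over stress. Over these fits the share of all genes called was 0.553% to 0.96% for ethanol and 0.418% to 0.759% for the interaction. It was 0.618% to 4.14% for ethanol+stress and 0.749% to 3.54% for ethanol averaged over stress. For transcripts, leaving out 1 library gave 0 to 2 for ethanol, for ethanol+stress and for ethanol averaged over stress (1, 0 and 1 in the report). The shares of all transcripts called were 0.991% to 1.42%, 1.02% to 2.23% and 1.2% to 2.26%. Transcripts called for ethanol were 0 with a filter of 1 TPM, and for ethanol averaged over stress 2 with the length trend removed and 0 without the 3 libraries. Without the 3 libraries the ethanol+stress differences in log2 totals were -0.0438, -0.0029 and 0.0323 for Pcdha, Pcdhb and Pcdhg.

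Replicate numbers did not pair the mice: correlations of deviations between mice with the same number ran from -0.173 to 0.164, and 1 of 18 was over 0.1. With the replicate block, 2 member genes were called in ethanol+stress (Pcdhga9 and Pcdha4) and 0 member transcripts for ethanol averaged over stress. In this section, shares over all features are given only at p under 0.05 and for fits without 1 library. The other counts cannot be read as a trait of the members.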
